A study of Mus musculus with 6 samples.

Results

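The genes described are those of the YAP and TEAD pathway, taken by symbol: Ankrd1, Amotl1, Amotl2, Myof, Cyr61, Ctgf, Yap1, Wwtr1, Tead1 and Lats2. Of these 10 symbols, 6 stood in the deposited tables (Ankrd1, Myof, Amotl2, Amotl1, Yap1 and Wwtr1), among 7384 genes in all. Cyr61 and Ctgf stood there under their current symbols Ccn1 and Ccn2; they are described beside the 6 but not counted among them. Tead1 and Lats2 were not analysed here. The label of target genes covers Ankrd1, Myof and Amotl2, and Ccn1 and Ccn2. Yap1 and Wwtr1 encode the coactivators themselves, and Amotl1 encodes a protein that binds them.

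RNA was sequenced from vascular smooth muscle cells grown from mouse aorta, in 6 samples. In 3 of them Sirt6 had been knocked down with siRNA (named siSirt6), 3 served as Control, and all were kept for 48 h. Sirt6 encodes a deacylase of chromatin. The strain and age of the mice, any genetic change they carry and what the Control cultures received are not given in the sources used here. Nothing states that the 3 samples of a group came from separate cultures, so p-values measure only the spread between these samples, which may be technical.

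YAP, encoded by Yap1, and TAZ, encoded by Wwtr1, enter the nucleus and bind TEAD factors, which sit on DNA and switch on growth, matrix and cytoskeletal genes. The Hippo kinase cascade phosphorylates YAP and TAZ and keeps them in the cytoplasm, and the angiomotins Amot, Amotl1 and Amotl2 hold them at junctions and on actin. In smooth muscle cells, stretch, a stiff matrix and actin tension are known to activate YAP and TAZ.

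The 250 bases before the annotated start sites were searched for the TEAD core letters, GGAATG or its reverse complement CATTCC, on both strands. Sequences were those of RefSeq on GRCm38.p6, which had an entry for all 6 genes and for Ccn1; Ccn2 had no match in that table. The windows with matches are shown because TEAD factors are the DNA-bound partners of YAP and TAZ, and targets and coactivator genes alike held these letters. Each is read 5′ to 3′ on the gene's own strand, 30 bases long, with the TEAD core in capitals.
Ankrd1, farther match, chr19:36120037-36120066, minus strand: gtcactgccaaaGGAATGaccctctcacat
Ankrd1, nearer match, chr19:36119950-36119979, minus strand: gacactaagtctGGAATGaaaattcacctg
Amotl2, chr9:102717727-102717756, plus strand: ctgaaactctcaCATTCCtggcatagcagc
Ccn1, chr3:145650071-145650100, minus strand: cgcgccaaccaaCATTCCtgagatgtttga
Yap1, chr9:8004720-8004749, minus strand: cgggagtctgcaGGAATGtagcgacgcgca
Wwtr1, chr3:57576029-57576058, minus strand: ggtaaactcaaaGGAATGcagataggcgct

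Of the 6 genes, 4 held the core in this window: Ankrd1, Amotl2, Yap1 and Wwtr1. Ankrd1 held it 2 times, starting 210 and 123 bases before its start site. Among all 32851 promoters of the same length, 12.6% held at least 1 match and 1.02% held 2 or more. The share was 10.9% among promoters of genes called higher in siSirt6 and 11.3% among those of genes called lower. In Amotl2 the core began 65 bases before the RefSeq start site, in Ccn1 103, in Yap1 141 and in Wwtr1 136. The Ankrd1 and Amotl2 matches also lie inside 5′ UTR exons of longer GENCODE transcripts, while those of Ccn1, Yap1 and Wwtr1 lie in no exon of their gene. Myof and Amotl1 held no match in their windows. No AP-1 core (TGANTCA, both strands) was found in any of the 8 start-site windows of these 7 genes, against 6.75% of all promoters. A match is a description of letters and not a bound site.

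The normalised read count of Sirt6 itself was 251.7, 257.0 and 270.4 in Control replicates 1 to 3, and it was 44.5, 59.8 and 63.5 in the siSirt6 libraries. The groups did not overlap, and the log2 fold change was -2.21 (SE 0.141, adjusted p = 1.16e-15 by limma). A normalised read count here is the reads of a gene divided by a factor per library, as deposited, and the listed genes took between 14458847 and 15526399 reads per library. The tables hold almost only genes that differ: by limma with Benjamini-Hochberg adjustment at 0.05, 99.8% of the 7179 tested genes were called, 50.5% higher and 49.3% lower. Being called therefore says little about any gene in them, and the sizes and directions are described below. Less RNA per cell and fewer cells of a type cannot be told apart in such bulk samples.

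All 6 genes passed the filter on low values. Ankrd1 rose and the other 5 fell, against the 99.8% called in the tables as a whole (90.3% when adjusted over all annotated genes, with the same 1 and 5 called). In each of the 6, the 3 siSirt6 values lay apart from the 3 Control values, as they did for 96.8% of tested genes. The median log2 fold change of the 6 was -0.21, beside 0.08 over all tested genes. Ankrd1 moved by about 1 on the log2 scale, and the falls ranged from -0.42 to -0.16.

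Ankrd1 encodes a nuclear and sarcomeric ankyrin repeat protein that responds to stretch and is a much used readout of YAP activity. Its gene lies on chromosome 19 at 36111961 to 36120099 (GRCm38, minus strand), and the longest coding transcript has 9 exons and 2020 nt. Ankrd1 stood at 1589, 1544 and 1554 normalised read counts in Control replicates 1 to 3 and at 3441, 3214 and 3318 in siSirt6 replicates 1 to 3. Every siSirt6 library was above every Control library by a wide margin. The mean went from 1562 ± 23.3 to 3324 ± 114 (SD, n = 3), a 2.13-fold rise. The log2 fold change was 1.09 (SE 0.0346, limma adjusted p = 4.32e-24). Its size exceeded that of 93.6% of tested genes, and 19 alternative settings gave log2 values between 0.97 and 1.11.

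Myof encodes myoferlin, a ferlin of the plasma membrane that takes part in membrane repair and in the trafficking of growth factor receptors. It lies on chromosome 19 at 37899036 to 38043577 (minus strand), with 53 exons in a transcript of 7094 nt. Myof stood at 6223, 6323 and 6231 in the Control libraries and at 4755, 4650 and 4599 in the siSirt6 libraries. All siSirt6 values were below all Control values. Myof thus fell to 0.746 of Control, from 6259 ± 55.3 to 4668 ± 79.7 (SD, n = 3; log2 -0.42, SE 0.0251, limma adjusted p = 1.83e-16). With the trend of fold change on transcript length and GC content removed, the log2 value was -0.14 (limma adjusted p = 8.46e-06).

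Amotl2 encodes an angiomotin that is both induced by YAP and able to restrain it, as a feedback inhibitor. It lies on chromosome 9 at 102716672 to 102733418 (plus strand), with 10 exons in a transcript of 4328 nt. Amotl2 stood at 7996, 8069 and 8050 in Control and at 6096, 6308 and 5881 in siSirt6. The groups were again separate, with a wider spread among the siSirt6 libraries. It fell to 0.758 of Control, from 8038 ± 37.4 to 6095 ± 214 (SD, n = 3; log2 -0.40, SE 0.0249, limma adjusted p = 6.75e-16), and to a log2 value of -0.33 with the length and GC trend removed. So Myof and Amotl2, both counted as targets beside Ankrd1, moved opposite to it.

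**Figure D1:**
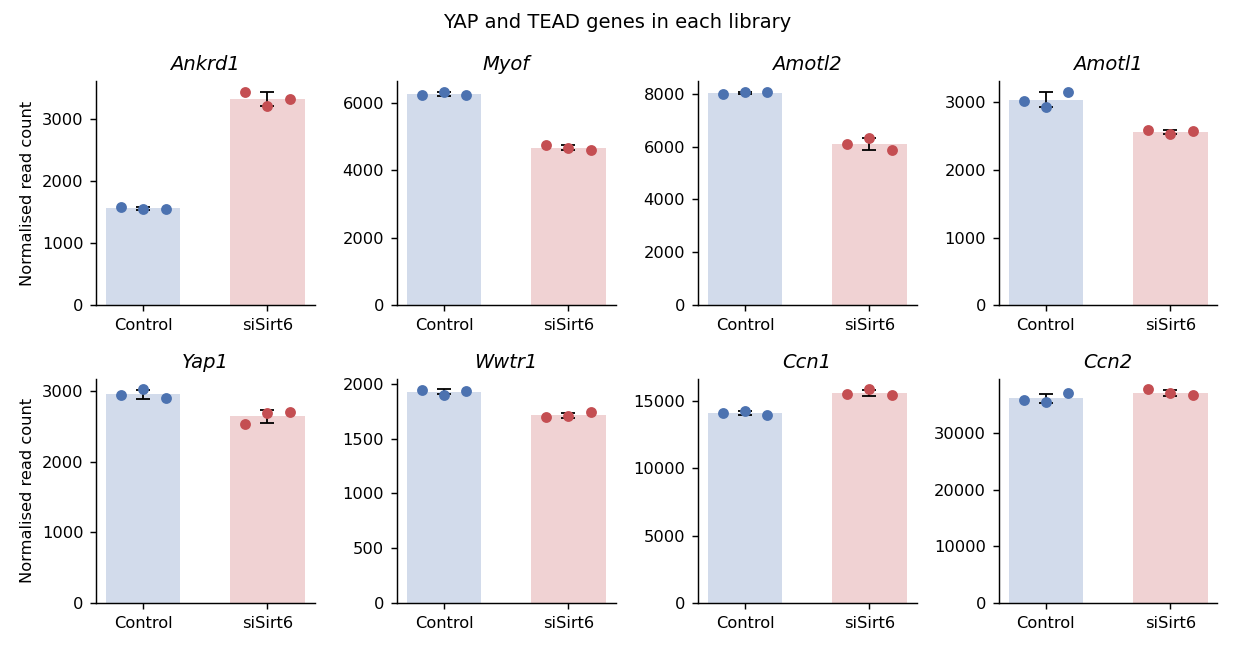
Normalised read counts (vertical axes, each from 0) of the 6 genes and of Ccn1 and Ccn2 in each library. Points are single libraries, bars are group means and error bars are SDs of 3 Control and 3 siSirt6 libraries. Ankrd1 rises from a mean of 1562 to 3324, Myof and Amotl2 fall to 0.746 and 0.758 of Control, and the groups of Ccn2 overlap.

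Ccn1 and Ccn2, once named Cyr61 and Ctgf, encode secreted matricellular proteins and are the targets most often measured to follow YAP. Ccn1 (chromosome 3, 145646976 to 145649981) stood at 14118, 14263 and 13949 in Control and at 15548, 15879 and 15436 in siSirt6. The groups were separate but close, a rise of 1.11-fold (log2 0.15, SE 0.0191, limma adjusted p = 2.72e-08). Its call was lost with libraries scaled to listed totals, the summed value of all genes in a table (log2 0.03, limma adjusted p = 0.15) and when the length and GC trend was removed (log2 -0.02, limma adjusted p = 0.441).

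Ccn2 (chromosome 10, 24595442 to 24598683) stood at 35874, 35569 and 37055 in Control and at 37707, 37034 and 36646 in siSirt6. Its groups overlapped: the highest Control library was above 2 of the siSirt6 libraries. The mean went from 36166 ± 785 to 37129 ± 537 (SD, n = 3), and log2 fold change was 0.04 (SE 0.0162, limma adjusted p = 0.0253). Adjusted over all annotated genes, where 90.3% of tested genes still passed, Ccn2 did not (limma adjusted p = 0.196). By DESeq2 on 5 libraries the log2 value was 0.00 (adjusted p = 0.903), and under listed totals it was -0.08. The call was also lost without Control replicate 1 (0.03, limma adjusted p = 0.107), without Control replicate 2 (0.03, limma adjusted p = 0.178) and without siSirt6 replicate 1 (0.03, limma adjusted p = 0.143). In these data, then, the size of the Ccn2 difference was near 0 and its direction depended on the scaling.

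Amotl1, the relative of Amotl2 that binds YAP at junctions, lies on chromosome 9 at 14541966 to 14645056 (minus strand). It stood at 3016, 2932 and 3154 in Control and at 2584, 2529 and 2570 in siSirt6, with no overlap. It fell to 0.844 of Control (log2 -0.24, SE 0.0325, limma adjusted p = 4.44e-08). With the length and GC trend removed it was at 0.03 and not called (limma adjusted p = 0.346).

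Yap1, the coactivator gene, lies on chromosome 9 at 7931999 to 8004596 (minus strand). It stood at 2944, 3027 and 2901 in Control and at 2543, 2686 and 2713 in siSirt6. The lowest Control library was above the highest siSirt6 library, and the mean fell to 0.895 of Control, from 2957 ± 64.0 to 2648 ± 91.3 (SD, n = 3). Its log2 fold change was -0.16 (SE 0.0327, limma adjusted p = 4.75e-05).

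Wwtr1, which encodes TAZ, lies on chromosome 3 at 57455649 to 57575910 (minus strand). It stood at 1941, 1900 and 1936 in Control and at 1698, 1703 and 1740 in siSirt6. These groups did not overlap either, and Wwtr1 fell to 0.890 of Control, from 1926 ± 22.6 to 1714 ± 23.0 (SD, n = 3; log2 -0.17, SE 0.0364, limma adjusted p = 9.75e-05). Yap1 and Wwtr1 moved less than most genes in the tables: only 9.51% and 10.7% of tested genes had a smaller log2 fold change in size. With the length and GC trend removed, Yap1 was at -0.02 (limma adjusted p = 0.549) and Wwtr1 at 0.07 (limma adjusted p = 0.0716), so neither was called.

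Long transcripts were lower in siSirt6 across the tables, and most of these genes have long transcripts. The median log2 fold change was -0.32 among the longest of 5 equal length classes (5253 to 123179 nt), which holds Myof and Amotl1, and 20.2% of that class were higher. It was -0.25 in the next class (3726 to 5250 nt), which holds Amotl2, Yap1 and Wwtr1. Yap1, Wwtr1 and Amotl1 thus fell by no more than the median of their own length class, while Myof and Amotl2 lay below it. Ankrd1 stood in the class from 1619 to 2626 nt, as Ccn1 and Ccn2 did, and its 1.09 compares with a median of 0.22 there. The part of the length trend in the changes of single genes was not tested beyond its removal.

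**Figure D2:**
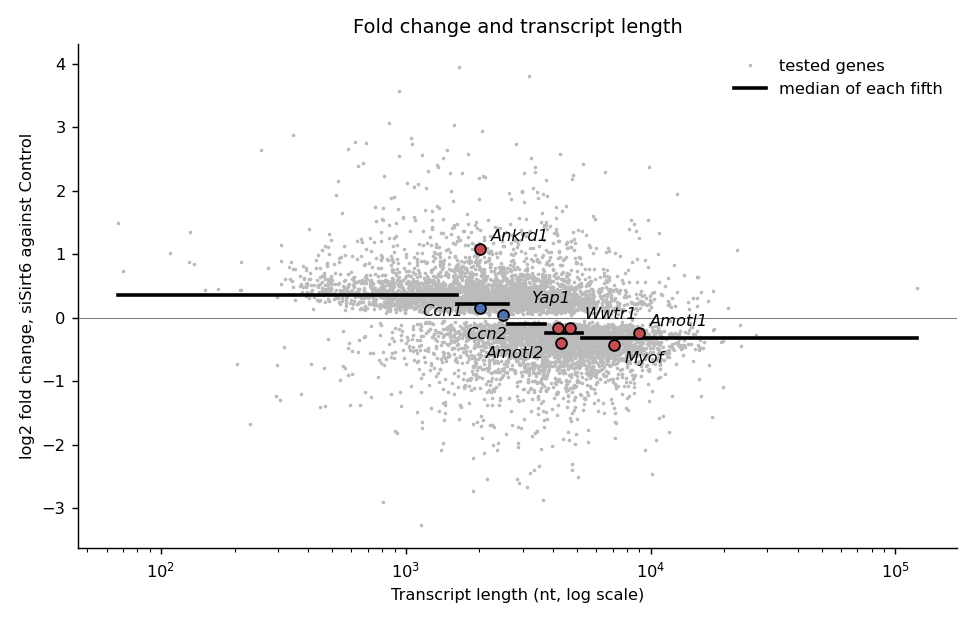
Log2 fold change (vertical axis) against transcript length in nt (horizontal axis, log scale) for tested genes with a known length, with black lines for the median of each of 5 length classes. Red points are the 6 genes and blue points Ccn1 and Ccn2. Ankrd1 lies far above the line of its class (1.09 against 0.22), and Yap1, Wwtr1 and Amotl1 lie close to theirs.

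**Figure D3:**
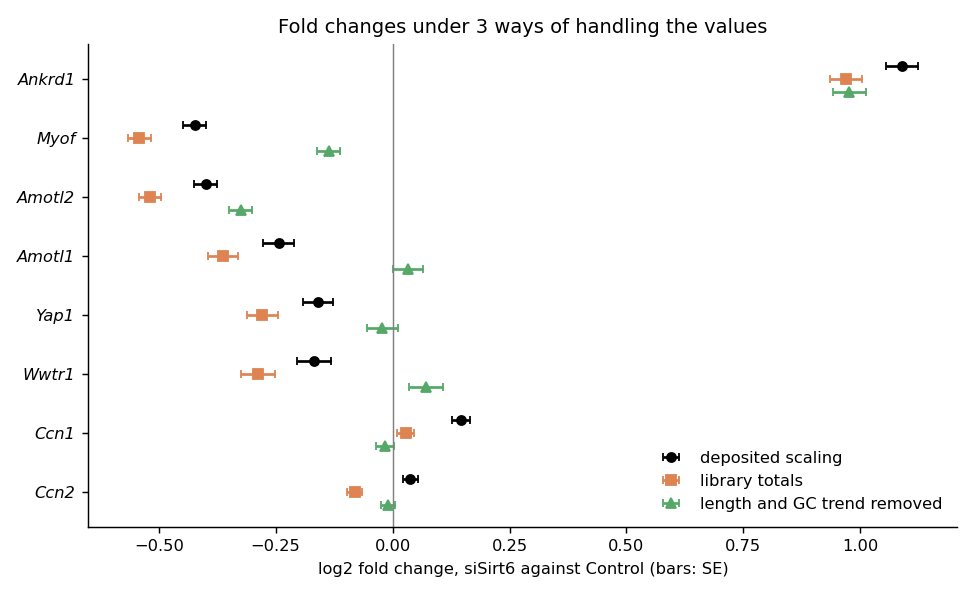
Log2 fold change with its SE for the 6 genes and for Ccn1 and Ccn2, with the deposited scaling, with listed totals, and after removal of the length and GC trend. Ankrd1 stays between 0.97 and 1.09 and Myof and Amotl2 stay below 0 in all 3, while Yap1, Wwtr1 and Amotl1 come to lie near 0 with the trend removed.

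Levels of different genes were compared as normalised read counts per kb of the longest coding transcript. In Control the order was Ccn2 (14524), Ccn1 (6989), Amotl2 (1857), Myof (882.3), Ankrd1 (773.4), Yap1 (709.0), Wwtr1 (410.0) and Amotl1 (338.7), and it was the same in all 3 libraries. In siSirt6, Ankrd1 (1646 ± 56.2 per kb) passed both Myof and Amotl2 (1408 ± 49.3 per kb) to take the third place in every library. Myof (658.0 ± 11.2) and Yap1 (634.8 ± 21.9) became neighbours there that changed places between libraries, so their levels were not apart beyond the spread (SD, n = 3). Such levels depend on which transcript is taken for the length.

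A ratio of a pair of genes inside a library does not depend on that library's scaling factor. The length and GC trend was not removed from these ratios, and its size differed between genes. With it removed, the log2 fold changes of the single genes were 0.98 for Ankrd1, -0.33 for Amotl2, -0.14 for Myof and 0.03 for Amotl1. How far the trend enters the differences between ratios was not tested. Over 7 pairs, the exact permutation test (2-sided) with 3 libraries against 3 can give no p below 0.1, so none could pass 0.05. The log2 ratio of Ankrd1 over Amotl2 was -2.36 ± 0.0282 in Control and -0.87 ± 0.0850 in siSirt6 (SD, n = 3), a difference of 1.49 (exact permutation p = 0.1, adjusted p = 0.14). That of Ankrd1 over Myof differed by 1.51 (exact permutation p = 0.1, adjusted p = 0.14). In both pairs the groups were separate in every library.

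The ratio of Myof over Amotl2 differed by -0.02 (exact permutation p = 0.8, adjusted p = 0.933), with overlapping groups. The coactivators behaved likewise: Wwtr1 over Yap1 was -0.62 ± 0.0471 in Control and -0.63 ± 0.0391 in siSirt6 (SD, n = 3; exact permutation p = 1). Amotl2 over Amotl1 fell by 0.16, and Ccn2 over Ccn1 by 0.11, each with separate groups (exact permutation p = 0.1, adjusted p = 0.14 for both). Myof was also set against Dysf, the ferlin of skeletal muscle membrane repair. Their log2 ratio went from 3.62 ± 0.107 to 2.81 ± 0.0337 (SD, n = 3; exact permutation p = 0.1, adjusted p = 0.14), as Dysf rose 1.30-fold.

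**Figure D4:**
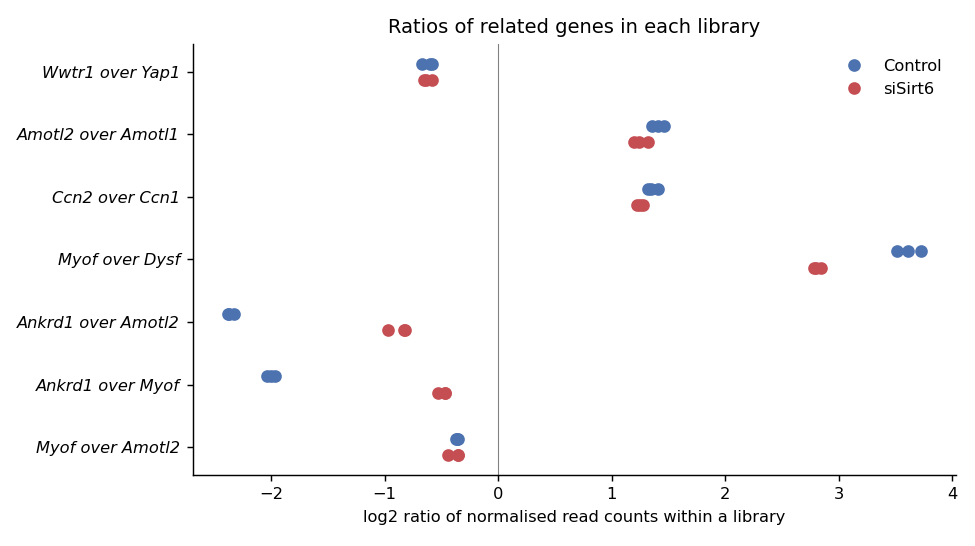
Log2 ratio of normalised read counts of a pair of genes within each library (horizontal axis), with blue points for the 3 Control and red points for the 3 siSirt6 libraries. Ankrd1 over Amotl2 and Ankrd1 over Myof shift to the right by about 1.5 (1.49 and 1.51), while Wwtr1 over Yap1 and Myof over Amotl2 overlap. The length and GC trend was not removed from these ratios.

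Other genes of a published set of YAP and TAZ targets were divided. Of 16 beyond the 6 and the CCN genes and Lats2, 11 were in the tables and tested. Of these, 6 rose and 5 fell, close to the 50.5% called higher and 49.3% lower in the tables as a whole. Their median log2 fold change was 0.27, beside 0.08 over all tested genes. Axl, a receptor tyrosine kinase, stood at 12038, 11949 and 12088 in Control and at 23216, 23399 and 23079 in siSirt6, a 1.93-fold rise of the size seen for Ankrd1 (log2 0.95, SE 0.0179, limma adjusted p = 1.95e-30). Igfbp3, which binds insulin-like growth factors, went the other way and fell to 0.510 of Control (log2 -0.97, SE 0.0314, limma adjusted p = 6.31e-24). The coagulation receptor F3 rose 1.39-fold and the matrix protein Ccdc80 1.30-fold. Removing the trend on length and GC left 5 called higher and 1 lower, when 2598 of all 7130 genes tested in that way were called higher and 2603 lower.

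The CCN family, Ccn1 and Ccn2 included, rose in 4 of 5 tested members and fell in 1. Over all tested genes, 50.5% were called higher and 49.3% lower. Ccn5 rose 1.39-fold from 11518 ± 173 to 16065 ± 152 (SD, n = 3), with a log2 value of 0.48 that was 0.21 with the length and GC trend removed. Ccn4 rose 1.52-fold. Ccn3, which often opposes Ccn2, fell to 0.682 of Control. Under listed totals 2 were higher and 2 lower, when 2708 of all 7184 genes tested in that way were called higher and 3572 lower. With the trend removed 2 were higher and 1 lower, when the counts over 7130 tested genes were 2598 and 2603.

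Among the DNA-binding partners, Tead2 rose 1.37-fold, from 557.3 ± 39.3 to 760.8 ± 20.7 (SD, n = 3; log2 0.45, SE 0.0615, limma adjusted p = 7.02e-08). Tead4 stood at 397.1, 371.0 and 341.9 in Control and at 444.0, 445.3 and 393.4 in siSirt6, with overlapping groups. Its log2 value was 0.21 (limma adjusted p = 0.0123), and the call was lost without Control replicate 3 (0.15, limma adjusted p = 0.0839), without siSirt6 replicate 1 (0.18, limma adjusted p = 0.0572) and when adjusted over all annotated genes (0.0954). It was lost in 9 of 19 alternatives in all, among them listed totals (0.0900, limma adjusted p = 0.272), removal of the length and GC trend (0.15, limma adjusted p = 0.0701) and, on 5 libraries, edgeR (adjusted p = 0.0896), DESeq2 (adjusted p = 0.191) and limma-voom (adjusted p = 0.0891). Vgll4, a TEAD cofactor that competes with YAP, fell to 0.696 of Control (log2 -0.53, SE 0.0797, limma adjusted p = 4.77e-07). Its relative Vgll3 fell to 0.928, a log2 value of -0.11 that turned to 0.25 with the length and GC trend removed. Of these 4 genes beside Yap1 and Wwtr1, 2 rose and 2 fell, with a median log2 fold change of 0.05. The tables as a whole had 50.5% called higher and 49.3% lower.

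The third angiomotin, Amot, moved furthest of the family. It stood at 569.8, 560.8 and 598.8 in Control and at 196.8, 239.2 and 243.5 in siSirt6, a fall to 0.393 (log2 -1.35, SE 0.0839, limma adjusted p = 6.31e-16), or -1.05 on the log2 scale once the trend was removed. All 3 angiomotin genes were therefore lower with the deposited scaling, although Amotl1 was not with the trend removed. Among junctional scaffolds with Amot, 6 of 7 tested fell and 1 rose, at a median of -0.35. In the tables as a whole, 49.3% were called lower and 50.5% higher. All but Ctnnb1 had transcripts in the length classes with medians of -0.25 and -0.32. Over 19 alternatives, 4 to 6 scaffolds were called lower and 0 to 1 higher. Ctnnb1, which encodes beta-catenin, fell to 0.786, the polarity protein gene Lin7c to 0.699 and the tight junction gene Tjp1 to 0.706. The log2 values of Lin7c and Tjp1 were -0.52 and -0.50, and -0.27 and -0.20 with the trend removed.

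The Hippo cascade and its upstream regulators were mostly lower. Of 29 genes beside Lats2, 20 were tested, and 16 fell and 4 rose, against 49.3% and 50.5% in the tables as a whole. The median log2 fold change was -0.31. Most of the 20 had transcripts in the length classes with medians of -0.25 and -0.32. In those classes 33.5% and 20.2% of genes were higher. After the trend was removed, 10 were lower and 4 higher, when 2603 of all 7130 genes tested in that way were called lower and 2598 higher. Sav1, the scaffold of the MST kinases, fell from 1452 ± 75.2 to 878.8 ± 74.9 (SD, n = 3), to 0.605 of Control. The giant cadherin gene Fat4 fell to 0.423, and the kinase gene Map4k4, which can phosphorylate the LATS kinases, from 12427 ± 70.2 to 8987 ± 131 (log2 -0.47, and -0.25 with the trend removed). Rassf1, a partner of the MST kinases, rose 1.64-fold. Lats1, Stk3 and Stk4, the core kinases, were not analysed here.

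In STRIPAK, the phosphatase complex that counters the Hippo kinases, 3 of 9 tested genes rose and 6 fell, with a median of -0.18. In the tables as a whole, 50.5% were called higher and 49.3% lower. The phosphatase scaffold Ppp2r1a rose 1.74-fold, from 3289 ± 87.9 to 5735 ± 46.7 (SD, n = 3), and Cttnbp2nl 1.38-fold. The striatins went down, Strn3 to 0.583 of Control and Strn to 0.695 (log2 -0.52, and -0.18 with the trend removed). Scaffold subunits thus moved in both directions within the complex.

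Actin-regulated transcription through SRF and its MRTF coactivators shares target genes with YAP. In that list 13 of 16 tested genes rose and 3 fell, against 50.5% and 49.3% in the tables as a whole. The median log2 fold change was 0.22. Over 19 alternatives, 11 to 13 were called higher and 3 to 4 lower. Smooth muscle actin Acta2 rose 1.66-fold and tropomyosin Tpm1 by 0.58 on the log2 scale. Vcl, for vinculin, fell to 0.491 of Control and Fhl1, a LIM protein, to 0.756.

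**Figure D5:**
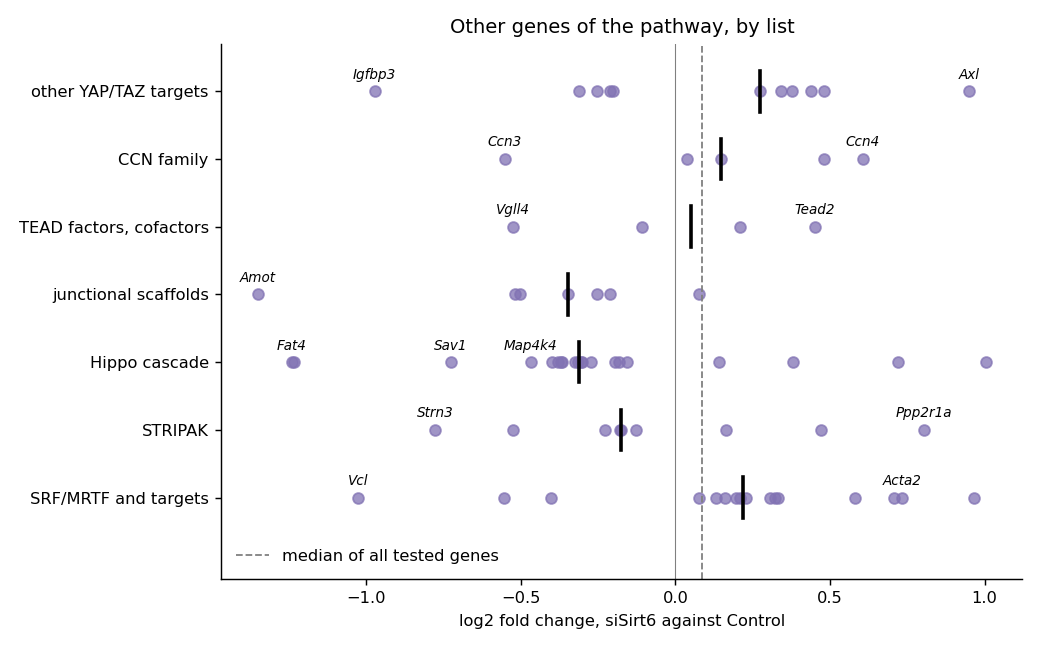
Log2 fold change (horizontal axis) of each tested gene in 7 lists of the pathway, leaving out the 6 genes themselves. Black bars are list medians and the dashed line is the median of all tested genes (0.08). Junctional scaffolds and the Hippo cascade lie mostly below 0 (medians -0.35 and -0.31), and other targets lie on both sides from Igfbp3 at -0.97 to Axl at 0.95. Most scaffold and Hippo cascade genes have transcripts in the length classes with medians of -0.25 and -0.32.

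Candidates for a like pattern were 6120 tested genes with a mean of at least 100, leaving out the 6 genes and predicted or unnamed genes. The closest of them were found by the distance over the 6 libraries between log2 values centred on each gene's mean. For Ankrd1 they were Fgd3, a guanine nucleotide exchange factor (distance 0.0864, log2 fold change 1.12), and Esd, an esterase (0.112 and 1.15). For Myof they were the survival gene Mcl1 (distance 0.0397) and Rarres1 (0.0401). For Amotl2 they were Prkar1a, a regulatory subunit of protein kinase A (0.0219), and the Mediator gene Med13 (0.0356). Amotl1 was nearest to Ago2 (0.0352) and Nfib (0.0361), Yap1 to Erlec1 (0.0340) and Tmem19 (0.0376), and Wwtr1 to the basement membrane gene Nid1 (0.0337) and Marveld1 (0.0394). The distances to Ankrd1 were larger than those of the other 5. The distance includes the fold change, and 93.6% of tested genes had a smaller one in size than Ankrd1, so this is not a separate result.

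Markers of smooth muscle were present: 12 of 14 contractile markers were in the tables. Their summed normalised read counts were 109327 to 109927 in Control and 164746 to 166854 in siSirt6 (10 rose, 2 fell). Beside this and the other marker counts below stand the shares over all tested genes, 50.5% called higher and 49.3% lower. Acta2, Tagln, Cnn1, Cald1 and Tpm1 stood in this list and in the SRF and MRTF list, so the counts of the 2 lists share genes. Several contractile markers were low in Control: Tagln at 178.7 ± 32.3, Cnn1 at 428.1 ± 20.8, Mylk at 520.2 ± 2.87 and Myh11 at 595.3 ± 16.6 (SD, n = 3). Endothelial markers (10 of 12 in the tables, all 10 higher) summed to 2975 to 3217 in Control and 4471 to 4621 in siSirt6, with the least, Cldn5, at 12.3 in Control. Adventitial fibroblast markers (9 of 10, 4 higher and 5 lower) summed to 93032 to 93873 in Control and 79444 to 81094 in siSirt6. That fall was carried by Gsn, which went from 72100 to 57433: the other 8 markers summed to 21181 to 21801 in Control and to 22201 to 22999 in siSirt6. In the other 5 marker lists the sum moved the same way without its most abundant gene. Macrophage and leukocyte markers (3 of 12, all 3 higher) went from 1777 to 1822 up to 1978 to 2018. None of these 3 calls was firm: by limma 3 had an unadjusted p under 0.05 but 0 passed when adjusted over all annotated genes, and on 5 libraries edgeR and limma-voom called 2 and DESeq2 1. With listed totals limma called 0 (0 at an unadjusted p under 0.05), and after removal of the length and GC trend it called 0 higher and 1 lower, Lyz2. Cd68 had overlapping groups and lost its call in 9 of 19 alternatives, among them without Control replicate 2 (0.27, limma adjusted p = 0.0728) and without siSirt6 replicate 1 (0.31, limma adjusted p = 0.0522). Adipocyte markers (4 of 6, 3 higher and 1 lower) went from 1872 to 1975 up to 2216 to 2300, and Schwann cell markers (3 of 6, all 3 lower) from 575.4 to 630.7 down to 338.2 to 359.8. Their part in the results for the YAP and TEAD genes was not tested.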

How the data were processed

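Each deposited table holds 1 library. Its deposited signal values are, as the numbers themselves show, whole reads divided by 1 factor per library: 100% of values were whole multiples of a step within 0.001 reads. No source used here says how the factors were obtained. Per the submitters' processing notes, the tools were HTSeq, Cufflinks, HISAT2 and Trimmomatic and the build was mm10, without versions, roles or order, and the labels' protocols name a stranded mRNA kit.

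Values were tested in R 4.3.3 by limma 3.58.1, 2-sided, with its trend and robust options and no covariate, on log2(value + 1), which understates the change of low genes. The filter kept genes that reached 10 in 3 or more libraries (205 left out), with Benjamini-Hochberg adjustment over all 7179. N-fold changes are ratios of group means. The fit was run on simulated data with an assumed spread, where few genes changed, unlike in these tables. It recovered 42.4% of genes with a true log2 change of 0.25, 85.7% at 0.5 and 100% at 1. Of unchanged genes, 0.129% were called. GENCODE vM21 (GRCm38) gave positions, transcript lengths and GC content, for 7332 of 7384 genes. Alternatives were other scalings, pseudocounts and filters, edgeR 4.0.16, DESeq2 1.42.0 and limma-voom on the reads of 5 libraries (the values of siSirt6 replicate 1 are whole reads too, but an automatic check did not accept its step of 0.989, close to 1, so it was left out), leaving out libraries, the replicate block, adjustment over 55536 annotated genes, and removal of a spline trend on transcript length and GC content. No replicate pair within a group was identical.

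The genes and lists were chosen with earlier results of these data known. Named are Sirt6, the genes of the opening, the 4 genes of smallest p per list and the 2 closest in pattern to each gene. Marker lists are given as sums, and their genes singly where a setting turned them. Cldn5, Tagln, Cnn1, Mylk and Myh11 are named for their low level, and Ctnna1 after its value was seen. Sums without the most abundant marker were added after seeing the data.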

Additional observations from a re-analysis of the deposited data

How the results depend on the processing

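Ankrd1 (0.97 to 1.11), Amotl2 (-0.52 to -0.33), Myof (-0.54 to -0.14) and Sirt6 (-2.44 to -2.06) kept direction and call in all 19 alternatives. Removing the length and GC trend, with or without the replicate block, left Amotl1 at 0.0335, Wwtr1 at 0.0722, Yap1 at -0.0218, Ccn1 at -0.0160 and Ccn2 at -0.00975, none called, and 2 of the 6 genes lower in place of 5. It also left 1 other YAP and TAZ target, 10 Hippo cascade genes and 1 TEAD cofactor lower, and 2 CCN genes higher. It turned Vgll3 to 0.25, Nfib to 0.11, Nid1 to 0.0705, Ago2 to 0.0387, Ly6a to -0.0224, C1qb to -0.0720, Lyz2 to -0.14 and Cidec to -0.0923. Over all 7130 genes tested with the trend removed and no block, 2598 were called higher and 2603 lower.

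Listed totals, which moved the median of all genes by -0.12, turned Ccn2 to -0.0807 and Lyz2 to -0.00975. They left 2 CCN genes higher and 2 lower, 0 junctional scaffolds higher by limma (0 also at an unadjusted p under 0.05; Ctnna1, called higher with the deposited scaling, was at -0.0417) and 1 of the TEAD factors higher. With their own scaling on 5 libraries, edgeR, DESeq2 and limma-voom each called 1 scaffold higher. The cause of these shifts was not tested. The count of TEAD factors and cofactors called higher was also 1 with edgeR, DESeq2, limma-voom and adjustment over all annotated genes. It was 1 to 2 without 1 library. Without 1 library, Ankrd1 lay between 1.06 and 1.11, Myof between -0.44 and -0.41, Amotl2 between -0.42 and -0.37, Amotl1 between -0.27 and -0.22, Yap1 between -0.18 and -0.13 and Wwtr1 between -0.18 and -0.16.

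Same-numbered libraries had correlations of deviations of -0.0195, 0.0268 and -0.000793, and different-numbered ones ranged from -0.0282 to 0.0303. No shared effect of the replicate number was seen, but whether samples were paired by design cannot be told from such values. The replicate block left 1 of the 6 genes higher and 5 lower. The limit of count tests to 5 libraries was set after seeing the data. With it, DESeq2 called 2945 genes higher and 3293 lower, against 3624 and 3542 by limma on all 6.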
